A study of Rattus norvegicus with 6 samples.

Results

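The fatty acid oxidation genes described here are 29 rat genes of fatty acid uptake, activation, mitochondrial import and beta-oxidation, named in a list by symbol and found on the array through the RefSeq accession of their probes. All 29 were on the array, out of 15443 genes that could be named. Expression was read on 6 one-colour Agilent arrays, all of Sprague Dawley material with an age of 13 weeks. ADSCs, stem cells from adipose tissue with a mesenchymal character, had been loaded with 124I-HIB, a lipophilic long-chain ester of radioiodinated benzoic acid used as a positron emission tracer, and were studied both in culture and after transfer into infarcted rat hearts. In culture, 1 array held labelled ADSCs and 1 held unlabelled ADSCs, both at 14 days. In the heart, 2 arrays held infarcted myocardium that had received labelled ADSCs by injection into the muscle. These are called the treated arrays, and their replicate numbers in the labels are 1 and 3. A further array held infarcted myocardium injected with phosphate-buffered saline (PBS), and another held myocardium of a sham-operated rat. Tissue was taken at 21 days, a time that the labels count from a sham operation even for infarcted tissue. The labels state neither which region of the heart was sampled, nor the number of animals behind an array, nor whether the treated pair came from 2 rats. A p-value therefore reflects only how far these samples scatter, and that scatter may be technical.

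Fatty acids are the main fuel of the adult heart. They enter the cardiomyocyte through transporters, are bound and activated to acyl-CoA, and cross into the mitochondrion as carnitine esters, a step that malonyl-CoA restrains. Each turn of beta-oxidation then dehydrogenates, hydrates, dehydrogenates again and cleaves the chain, and electrons pass through the electron transfer flavoprotein to the respiratory chain. Many genes of the pathway are known targets of PPAR-alpha, a nuclear receptor that fatty acids activate.

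PPAR-alpha and related nuclear receptors bind copies of the core hexamer AGGTCA, so the promoters of the members were searched for it on both strands, together with its direct repeat AGGTCANAGGTCA and the estrogen-related receptor site TCAAGGTCA, both of which contain the core hexamer. The RefSeq promoter table (build GRCr8) gives 250 bases before to 50 bases after a gene's start and held 24 of the 29 members. The core hexamer was present in 6 of these 24 (25.0%), in Acacb, Acadvl, Eci1, Eci2, Hadhb and Ucp3, and in 16.2% of all 33469 promoters of the table. The direct repeat was in none of the 24 (0.0538% of all promoters), and the estrogen-related receptor site was in none (0.433% of all). The 3 promoters below belong to the members with a core hexamer that differed most between ADSCs and myocardium. They lie at chr1:164227660-164227959 on the plus strand (Ucp3), chr12:48138165-48138464 on the minus strand (Acacb) and chr10:55236656-55236955 on the minus strand (Acadvl), read 5′ to 3′ along the gene. Capitals mark the core hexamer or its reverse complement, of which each promoter holds 2.
Ucp3: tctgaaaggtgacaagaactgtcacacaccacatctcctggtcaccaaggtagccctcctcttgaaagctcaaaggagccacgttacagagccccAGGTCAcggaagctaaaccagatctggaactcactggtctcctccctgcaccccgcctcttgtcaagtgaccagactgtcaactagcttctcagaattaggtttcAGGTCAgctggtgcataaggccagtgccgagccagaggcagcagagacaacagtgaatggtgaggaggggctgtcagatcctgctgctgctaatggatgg
Acacb: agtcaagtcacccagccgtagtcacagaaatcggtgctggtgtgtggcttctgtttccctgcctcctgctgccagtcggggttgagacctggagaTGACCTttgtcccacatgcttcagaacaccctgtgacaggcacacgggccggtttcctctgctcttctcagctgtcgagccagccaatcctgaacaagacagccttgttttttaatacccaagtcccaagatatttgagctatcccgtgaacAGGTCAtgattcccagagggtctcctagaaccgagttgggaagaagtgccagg
Acadvl: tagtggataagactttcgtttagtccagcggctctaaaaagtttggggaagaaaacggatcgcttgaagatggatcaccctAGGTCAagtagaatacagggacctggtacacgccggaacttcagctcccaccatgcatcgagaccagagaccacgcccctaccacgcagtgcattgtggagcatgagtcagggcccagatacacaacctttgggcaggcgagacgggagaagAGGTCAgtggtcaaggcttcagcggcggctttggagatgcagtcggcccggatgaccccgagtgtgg

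In Ucp3 the core hexamers begin 155 and 50 bases before the gene's start and read AGGTCA. In Acacb the one beginning 155 bases before the start is the reverse complement, and the other begins 3 bases before it. In Acadvl they begin 169 and 17 bases before the start. These matches describe the letters of the windows and are not measured binding sites.

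Levels are given as log2 of the processed signal relative to the 75th percentile of the same array, so 0 is the signal of the array's upper quartile. A level belongs to its probe and is compared only between arrays. The 75th percentile was a signal of 2615.3 and 2360.3 on the labelled and unlabelled ADSC arrays, 1275.6 and 1057.8 on the treated arrays, 1120.1 on the PBS array and 771.9 on the sham array. Between 61.7% and 67.3% of probes were well above background, and no spot was saturated. As a check of the labels, the summed signal of 8 fibroblast and mesenchymal markers, in multiples of the array's 75th percentile, was 254 and 246 in labelled and unlabelled ADSCs, against 47.4 to 62.8 on the myocardial arrays, and that of 8 ventricular markers was 2.87 and 2.76, against 1780 to 2700. Detection alone separated them less: in ADSCs all 8 mesenchymal and 5 of the 8 ventricular markers were well above background (Myh6, Myh7 and Myl2 were not), and in myocardium 7 and 8 were. Single mesenchymal markers varied: 5 of the 8 were 2-fold higher in ADSCs than in myocardium, among them Col1a1 (20.3-fold). Nt5e and Dcn had log2 differences of 0.37 and 0.36, and Eng was lower in ADSCs (-0.24). The number of arrays limits the precision.

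Of the members, 26 were well above background on both ADSC arrays, and all 29 were so on each of the 4 myocardial arrays. The exceptions in ADSCs were Cd36, Acacb and Ucp3. The median level of the members was 0.60 on the labelled and 0.30 on the unlabelled ADSC array, against 3.56 and 3.52 on the treated arrays, 3.43 on the PBS array and 3.58 on the sham array. The myocardial medians thus lay within a narrow band above both cell arrays. Within myocardium the gap between the highest and the lowest array ran from 0.12 for Eci1, an isomerase for unsaturated chains, to 1.20 for Ucp3, mitochondrial uncoupling protein 3, and Ppara, the gene of PPAR-alpha.

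**Figure D1:**
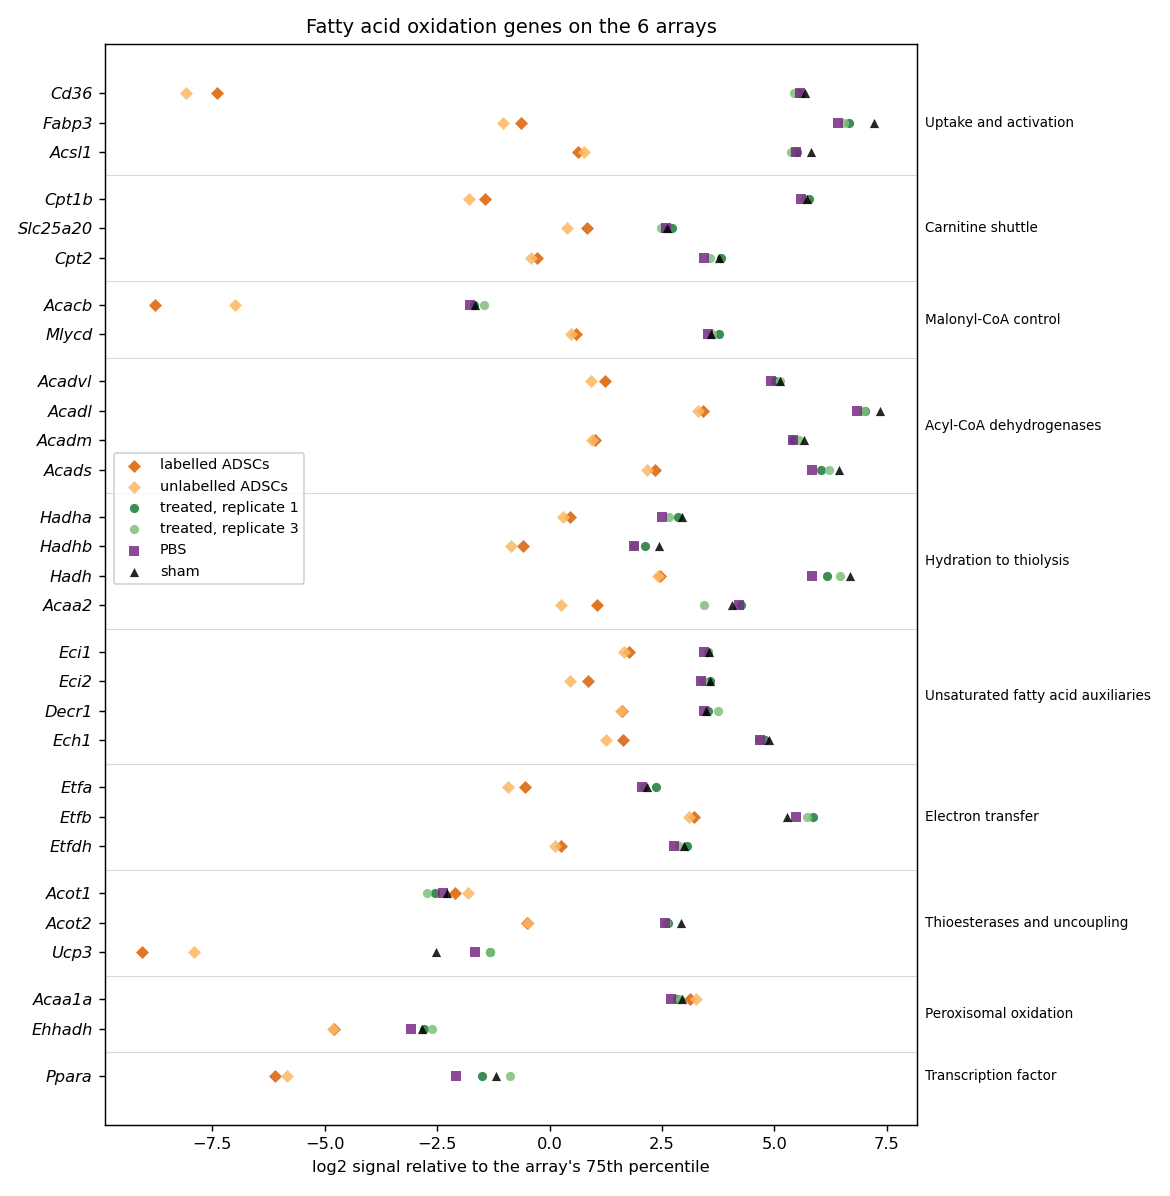
Level of each of the 29 genes on each of the 6 arrays (log2 signal relative to the array's 75th percentile), grouped by role; each symbol is 1 array, and levels compare arrays within a gene. The ADSC symbols of Cd36, Acacb and Ucp3 are not well above background, and the ADSC symbols lie left of the myocardial ones for every gene except Acot1 and Acaa1a.

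The first comparison set cultured ADSCs, labelled and unlabelled, against the myocardium that had received labelled ADSCs or served as control. In ADSCs 27 of the 29 genes fell and 2 rose (limma, Benjamini-Hochberg adjusted p under 0.05), where 35.4% of all 20343 features tested were lower and 34.5% higher. Cd36, Acacb and Ucp3, not well above background in ADSCs, entered this test through the myocardial arrays alone. Of the 26 members well above background on every array, 24 were called lower. The median log2 difference was -3.31 for the members, against -0.003 for all features tested and -0.36 for the 2300 features as bright in myocardium as the lowest quartile of the members or brighter. In bulk RNA, fewer cells of a type and less RNA per cell cannot be told apart. The myocardial arrays lay in row 1 of the slide and the ADSC arrays in row 2, so position and sample type cannot be told apart either.

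As a group, uptake and activation genes lay furthest below myocardium in ADSCs, with a median log2 difference of -7.55. Cd36, the sarcolemmal fatty acid translocase, was not well above background on either ADSC array, against levels of 5.55 and 5.44 on the treated arrays, 5.56 on PBS and 5.68 on sham. By a bound on its ADSC signal, Cd36 was at least 5390-fold lower in ADSCs. The bound divides by the higher of the probe's own signal and the lowest signal among probes well above background on each ADSC array. Fabp3, the heart-type fatty acid binding protein, stood at -0.64 in labelled and -1.05 in unlabelled ADSCs, against 6.65 and 6.54 in treated, 6.42 in PBS and 7.21 in sham myocardium. The groups were far apart, a 187-fold lower signal in ADSCs (log2 difference -7.55 ± 0.25 SE, 2 against 4 arrays, limma adjusted p = 1.72e-06). Acsl1, the main long-chain acyl-CoA synthetase of heart, was 28.8-fold lower (-4.85 ± 0.15 SE, limma adjusted p = 1.46e-06), at 0.62 and 0.76 in labelled and unlabelled ADSCs against 5.37 to 5.81 in myocardium.

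In the carnitine shuttle, the muscle isoform of the controlling enzyme fell most. Cpt1b, which makes acylcarnitine at the outer mitochondrial membrane, had levels of -1.43 and -1.78 in labelled and unlabelled ADSCs, against 5.78 and 5.68 in treated, 5.59 in PBS and 5.72 in sham myocardium. Its signal was 157-fold lower in ADSCs (-7.30 ± 0.14 SE, limma adjusted p = 2.13e-07). A second, dimmer Cpt1b probe also was lower, by a log2 difference of -5.59, but was not well above background in ADSCs. Cpt2, which reverses the reaction inside the mitochondrion, was 15.8-fold lower, and Slc25a20, the carnitine-acylcarnitine carrier between them, was 3.98-fold lower. Of the malonyl-CoA enzymes, Acacb, which makes the inhibitor of Cpt1, was at least 36.8-fold lower by its bound. Mlycd, which degrades it, was 8.48-fold lower, at 0.60 and 0.48 in labelled and unlabelled ADSCs against 3.77 and 3.62 in treated, 3.52 in PBS and 3.59 in sham myocardium.

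The 4 acyl-CoA dehydrogenases, which open each cycle on chains of different length, fell within a narrow range of log2 differences, from -4.53 for the medium-chain Acadm to -3.69 for the long-chain Acadl. Acadm stood at 1.00 and 0.95 in labelled and unlabelled ADSCs, against 5.42 and 5.54 in treated, 5.41 in PBS and 5.65 in sham myocardium (23.1-fold lower in ADSCs, SE 0.12, limma adjusted p = 7.42e-07). Acadl stood at 3.42 and 3.29 in labelled and unlabelled ADSCs, against 7.014 and 7.001 in treated, 6.84 in PBS and 7.34 in sham myocardium. In neither gene did the ADSC and myocardial arrays overlap. The later steps all fell, with a median log2 difference of -3.08, from 14.5-fold lower for Hadh, the 3-hydroxyacyl-CoA dehydrogenase for shorter chains, and 10.2-fold for Acaa2, the mitochondrial thiolase, to 6.99-fold and 5.15-fold for Hadhb and Hadha, the subunits of the trifunctional protein. Hadh had levels of 2.46 and 2.41 in labelled and unlabelled ADSCs, against 6.17 and 6.46 in treated, 5.84 in PBS and 6.69 in sham myocardium.

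Auxiliary enzymes for unsaturated chains fell less, with a median log2 difference of -2.39. Ech1, a dienoyl-CoA isomerase, was 9.91-fold lower, at 1.63 and 1.25 in labelled and unlabelled ADSCs against 4.78 and 4.65 in treated, 4.68 in PBS and 4.88 in sham myocardium. The isomerase Eci2 was 7.08-fold lower and the dienoyl-CoA reductase Decr1 3.86-fold, and Eci1 had the smallest fall of all 27 genes, 3.44-fold. The electron transfer genes fell by 5.39-fold (Etfb), 6.63-fold (Etfdh) and 7.55-fold (Etfa). Etfb, the beta subunit of the flavoprotein, had levels of 3.22 and 3.10 in labelled and unlabelled ADSCs, against 5.87 and 5.73 in treated, 5.49 in PBS and 5.28 in sham myocardium.

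Ppara fell with its pathway. Its levels were -6.11 and -5.85 in labelled and unlabelled ADSCs, against -1.50 and -0.88 in treated, -2.08 in PBS and -1.19 in sham myocardium (23.7-fold lower in ADSCs, -4.56 ± 0.33 SE, limma adjusted p = 4.11e-05). Ucp3 was at least 34.9-fold lower by its bound. Acot2, a mitochondrial acyl-CoA thioesterase, was 8.94-fold lower, at -0.49 and -0.48 in labelled and unlabelled ADSCs against 2.63 and 2.60 in treated, 2.56 in PBS and 2.91 in sham myocardium. Ehhadh, the bifunctional enzyme of peroxisomal beta-oxidation, was 3.95-fold lower.

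The 2 genes that rose act outside the mitochondrion. Acot1, the cytosolic thioesterase, had levels of -2.10 and -1.81 in labelled and unlabelled ADSCs, against -2.55 and -2.73 in treated, -2.37 in PBS and -2.28 in sham myocardium. The rise was 1.44-fold (0.53 ± 0.17 SE, limma adjusted p = 0.0306). Acot1 and Acot2 are close paralogs, and a probe for one may also report the other. Acaa1a, the peroxisomal thiolase, had levels of 3.12 and 3.27 in labelled and unlabelled ADSCs, against 2.83 and 2.90 in treated, 2.70 in PBS and 2.94 in sham myocardium, a 1.28-fold rise (0.35 ± 0.12 SE, limma adjusted p = 0.0412). Both rises were small and rested on few arrays: Acot1 missed the threshold with another background correction (normexp, adjusted p = 0.245), and Acaa1a missed it without the PBS array (adjusted p = 0.0717) and with the mean over its probes (adjusted p = 0.0583). Both missed it with treated replicate 1, treated replicate 3 or the unlabelled ADSC array left out (adjusted p from 0.0576 to 0.202), and Acaa1a with the labelled one left out (adjusted p = 0.0809), while the 27 falls passed in each of these fits.

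**Figure D2:**
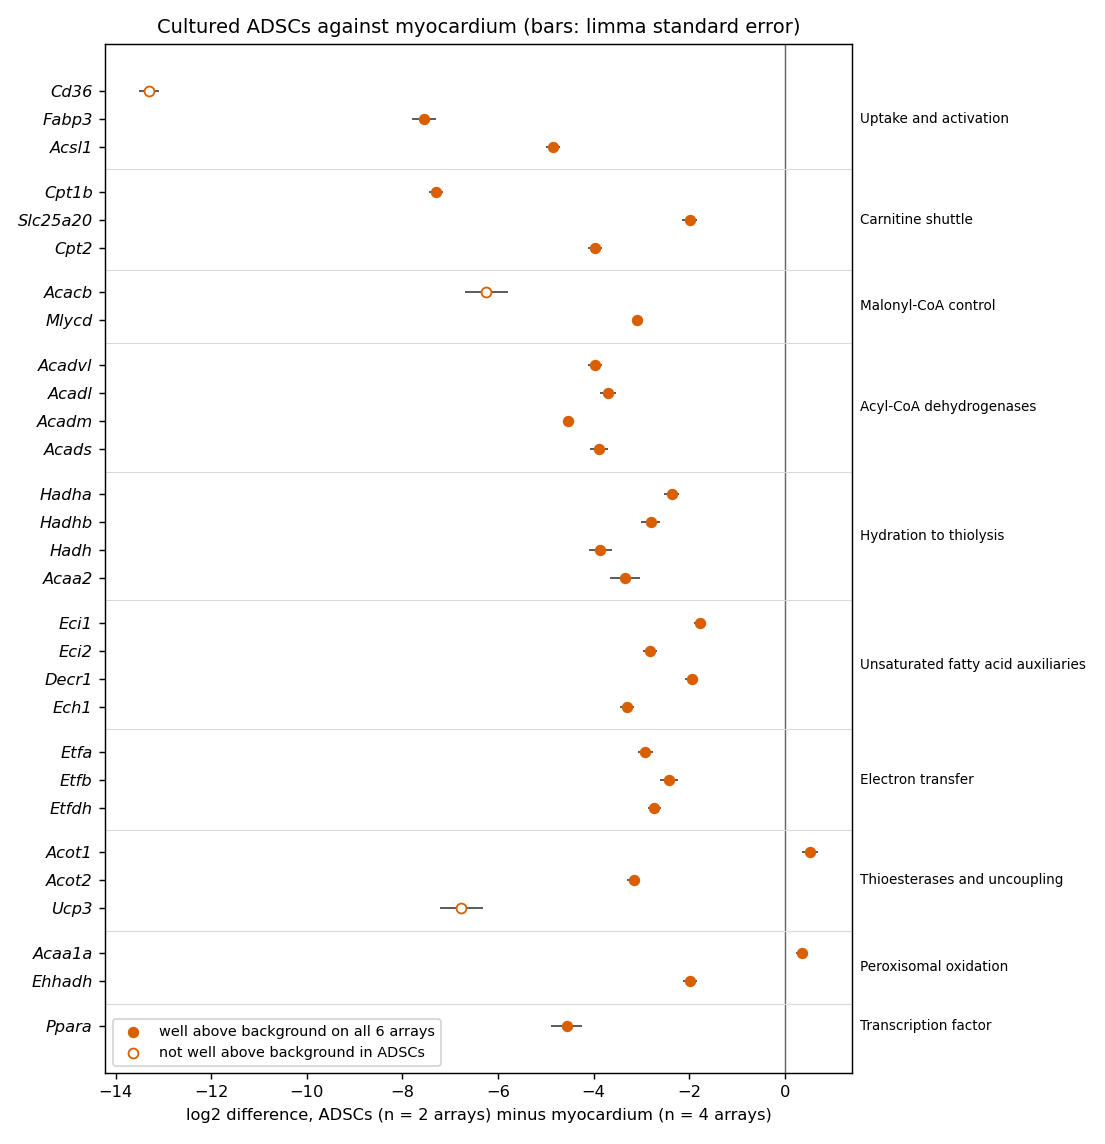
Log2 difference of each gene, 2 ADSC arrays minus 4 myocardial arrays, with the limma standard error as bars. Open symbols are genes not well above background in ADSCs, whose plotted difference is that of the measured signals and not a bound; 27 genes lie left of 0, and Acot1 and Acaa1a lie right of it.

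Genes around the pathway were also read. Of 28 tested genes in a list of other fatty acid oxidation genes, 7 were higher and 17 lower in ADSCs by the same limma test. The acyl-CoA synthetases changed in both directions: Acsl4 was 8.74-fold higher and Acsl3 6.09-fold higher in ADSCs, while Acsl6 was not well above background there. Cpt1c, the brain isoform of Cpt1, was 3.84-fold higher, and Cpt1a, the liver isoform, had a log2 difference of -0.78 that did not pass (limma adjusted p = 0.128). That mean covers unlike arrays: Cpt1a stood at -0.34 in labelled and -1.88 in unlabelled ADSCs, against -0.60 to -0.17 in myocardium. Of 15 tested PPAR and lipid-responsive genes, 2 were higher and 10 lower. Plin2, a lipid droplet coat protein, was 3.02-fold higher in ADSCs. Of 15 tested genes that control transcription of oxidation genes, 13 were lower and 0 higher, among them the PPAR-gamma coactivator Ppargc1b, 85.7-fold lower (log2 difference -6.42). Its relative Ppargc1a, the retinoid receptor Rxrg and the AMP-activated kinase subunit Prkaa2 were measured only in myocardium.

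The second comparison set infarcted, PBS-injected myocardium against sham myocardium, 1 array each, so it has no test and no replicate check. No member was 2-fold apart, where 1.3% of 16621 features were 2-fold lower and 1.99% 2-fold higher. The members lay on the low side: 26 of 29 were below sham (25 with normexp and 19 with quantile normalization or in the authors' deposited table), where 55.9% of all features were (68.8%, 52.8% and 50.7%). Their median log2 difference was -0.20, against -0.05 for all features. Features of like brightness lay equally low, with a median of -0.21 and 78.2% below sham, and of the 22 members among them 20 were below. The members' median thus lay beside that of other bright features on the array.

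Single members stood apart by more than that median. Ppara had a level of -2.08 on the PBS array and -1.19 on the sham array (log2 difference -0.89, 0.54 of sham). Hadh had 5.84 on PBS and 6.69 on sham (-0.85). Fabp3 had 6.42 on PBS and 7.21 on sham (-0.79), although Cd36, its partner in uptake, differed by -0.12. Acads, the short-chain dehydrogenase, had 5.83 on PBS and 6.43 on sham, and Hadhb had 1.89 on PBS and 2.43 on sham, differences of -0.60 and -0.54. Among roles with more than 1 gene, the largest median shortfalls were in the steps from hydration to thiolysis (-0.49) and the acyl-CoA dehydrogenases (-0.37), and the carnitine shuttle (-0.13) and malonyl-CoA enzymes (-0.09) differed little. The 3 members above sham were Ucp3, at -1.66 on PBS and -2.53 on sham (0.87), Etfb, at 5.49 on PBS and 5.28 on sham (0.21), and Acaa2, at 4.20 on PBS and 4.07 on sham (0.13). These sizes depended on the scaling. With quantile normalization the differences were -0.36 for Fabp3, -0.31 for Acads, -0.53 for Hadh and 0.39 for Etfb. Those of Ppara (-0.94), Hadhb (-0.44) and Ucp3 (0.87) moved less. The role medians were read at the main scaling only.

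Tissue markers moved on the same arrays. All 8 ventricular cardiomyocyte genes were lower on the PBS array, with a median of -0.45, and their summed signal, in multiples of the array's 75th percentile, was 1780 and 2080 on the treated arrays, 2020 on PBS and 2700 on sham. Of 6 atrial genes, 5 were higher on the PBS array and Myl4 was lower (-0.23). Their summed signal was 165 and 142 on the treated arrays, 449 on PBS and 168 on sham, with Myl7, the atrial myosin light chain, 268-fold higher on PBS than on sham. Of these 5, Bmp10 and Mybphl were well above background on the PBS array alone and Sln was not well above it on sham. Adipoq, an adipocyte hormone, was well above background on the PBS array only, at -2.66, and 3 of the 4 adipocyte genes measured on both arrays were higher on PBS (median 0.28), while the fourth, Fabp4, was lower (-0.31) and the summed adipocyte signal was 10.4 on PBS and 11.1 on sham. All 3 erythroid genes measured were lower on PBS, with differences of -0.85 (Hbb), -1.02 (Alas2) and -1.48 (Slc4a1), and their summed signal was 128 and 185 on the treated arrays, 150 on PBS and 271 on sham. The part of these differences in tissue make-up in the members' values was not tested.

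The lipid-responsive genes lay on both sides of sham. Of 15 measured, 9 (60%) were below sham on the PBS array, near the 55.9% of all features. Angptl4, a secreted inhibitor of lipoprotein lipase, was 4.29-fold higher, at -0.86 on PBS and -2.96 on sham, and Pdk4, the kinase that turns down pyruvate oxidation, was 1.97-fold higher. Other fatty acid oxidation genes were below sham in 20 of 27 cases, with a median of -0.14.

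The third comparison set treated myocardium against PBS-injected myocardium, that is, what differed where labelled ADSCs had been injected. No member passed limma's test (lowest adjusted p = 0.519), and 0 of the 29 had an unadjusted p under 0.05, in a fit whose only replicate spread is that of the treated pair. Over all 18671 features, 13 passed (0.0696%) and 1855 had an unadjusted p under 0.05. No member was 2-fold apart on both treated arrays, where 0.758% of features were 2-fold lower and 0.406% 2-fold higher. On both treated arrays 22 of 29 members lay above PBS (16 with quantile normalization or in the authors' deposited table), where 38.8% of all features did and 52.6% of features of like brightness. Of the 22 members among such bright features, 17 did. The members' median log2 difference was 0.18 in replicate 1 and 0.12 in replicate 3, against a median over both arrays of 0.01 for all features and 0.09 for bright ones.

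The 5 members furthest above PBS came from different roles. Ppara had levels of -1.50 and -0.88 on the treated arrays, against -2.08 on PBS (log2 difference 0.89 ± 0.44 SD, n = 2; limma adjusted p = 0.519). Hadh had 6.17 and 6.46 on the treated arrays, against 5.84 on PBS (0.48 ± 0.21 SD, n = 2; limma adjusted p = 0.584). Both treated arrays were above PBS in each gene, but the treated arrays also differed from each other. Ucp3 had -1.33 on each treated array, against -1.66 on PBS. Ehhadh had -2.78 and -2.62 on the treated arrays, against -3.08 on PBS, and Etfb had 5.87 and 5.73, against 5.49. Acot1 and Cd36 were the 2 members below PBS on both arrays. Acot1 had -2.55 and -2.73 on the treated arrays, against -2.37 on PBS, and Cd36 had 5.55 and 5.44, against 5.56, a difference whose sign turned with median centring (0.02). Acaa2 split the pair, with 4.26 and 3.43 on the treated arrays and 4.20 on PBS. The summed ventricular signal lay at 1780 and 2080 on the treated arrays and 2020 on PBS, while the atrial sums were 165 and 142 on the treated arrays and 449 on PBS. The erythroid genes Alas2 and Slc4a1 were 2-fold higher on both treated arrays than on PBS, but Hbb differed by -0.27 and 0.28. The summed erythroid signal was 128 and 185 on the treated arrays and 150 on PBS. Among adipocyte genes measured on these arrays, Cfd was 2-fold lower on both treated arrays and Lipe was lower by 0.39 and 0.43. Fabp4 (-0.13 and 0.21) and Pparg (-0.12 and 0.09) lay on either side of PBS. The part of these differences in the members' values was not tested.

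Of 27 measured genes in the list of other fatty acid oxidation genes, 16 lay above PBS on both treated arrays and 4 below, with a median of 0.10. Of 14 genes that control transcription of oxidation genes, 9 lay above on both arrays. Klf15, a factor of cardiac lipid metabolism, had 2.27 on each treated array, against 1.62 on PBS, and Ppargc1b had 0.77 and 0.68, against 0.14.

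The fourth comparison set the same treated arrays against sham. No feature passed limma's test (0 of 18671, 0%; 1879 had an unadjusted p under 0.05), and the lowest adjusted p of a member was 0.305. Unadjusted p was under 0.05 for 3 members, Ucp3, Fabp3 and Etfb. By fold, 1 member, Ucp3, was 2-fold higher on both treated arrays, where 0.518% of 16411 features were 2-fold higher and 0.372% 2-fold lower. Ucp3 had -1.33 on each treated array and -2.53 on sham, a mean of 2.29-fold. With normexp it was 1.82-fold and short of the 2-fold rule. Members lay below sham on both treated arrays in 16 cases and above in 5, where 42.7% of all features lay below and 32.5% above, and 60.9% and 19% of bright features. Their median was -0.08, against -0.04 for all features and -0.13 for bright ones, and it changed sign in the authors' deposited table (0.0035).

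Ranked by the treated array nearer to sham, the 5 members furthest below it came from several roles. Fabp3 had 6.65 and 6.54 on the treated arrays and 7.21 on sham (log2 difference -0.61 ± 0.08 SD, n = 2; limma adjusted p = 0.464). Acsl1 had 5.49 and 5.37 on the treated arrays and 5.81 on sham, and Acadl had 7.014 and 7.001, against 7.34. Hadhb had 2.12 and 1.88 on the treated arrays and 2.43 on sham, and Acot2 had 2.63 and 2.60, against 2.91. In each of these 5 genes both treated arrays lay below sham at the main scaling. Acadl's mean difference was -0.0004 with quantile normalization and 0.0035 in the authors' deposited table, and that of Fabp3 was -0.28 and -0.33. The mean differences of Acsl1, Hadhb and Acot2 stayed below 0 under both. Etfb lay on the other side, with 5.87 and 5.73 on the treated arrays and 5.28 on sham (0.51 ± 0.10 SD, n = 2; limma adjusted p = 0.494). Smaller positive differences on both arrays were seen for Ehhadh (0.05 and 0.21), Decr1 (0.05 and 0.29) and Mlycd (0.18 and 0.03). Angptl4 was above sham on both treated arrays, by 1.56 and 1.32.

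These 3 myocardial comparisons share arrays, so their values are given side by side. On all 3 infarcted arrays 16 of 29 members lay below sham, where 34.8% of all features did and 56.8% of bright features, and 14 of the 22 bright members were among them. The count was 9 with quantile normalization and 8 with the authors' deposited table. Above sham on all 3 lay 2 members, Etfb and Ucp3 (24.5% of all features). Fabp3 differed from sham by -0.55 and -0.67 in treated replicates 1 and 3 and by -0.79 in PBS. Ucp3 differed by 1.19 and 1.20 in the treated arrays and by 0.87 in PBS. Ppara differed by -0.30 and 0.31 in the treated arrays, on either side of sham, and by -0.89 in PBS. In the carnitine shuttle, the differences of Cpt1b, Slc25a20 and Cpt2 from sham all lay between -0.33 and 0.11.

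**Figure D3:**
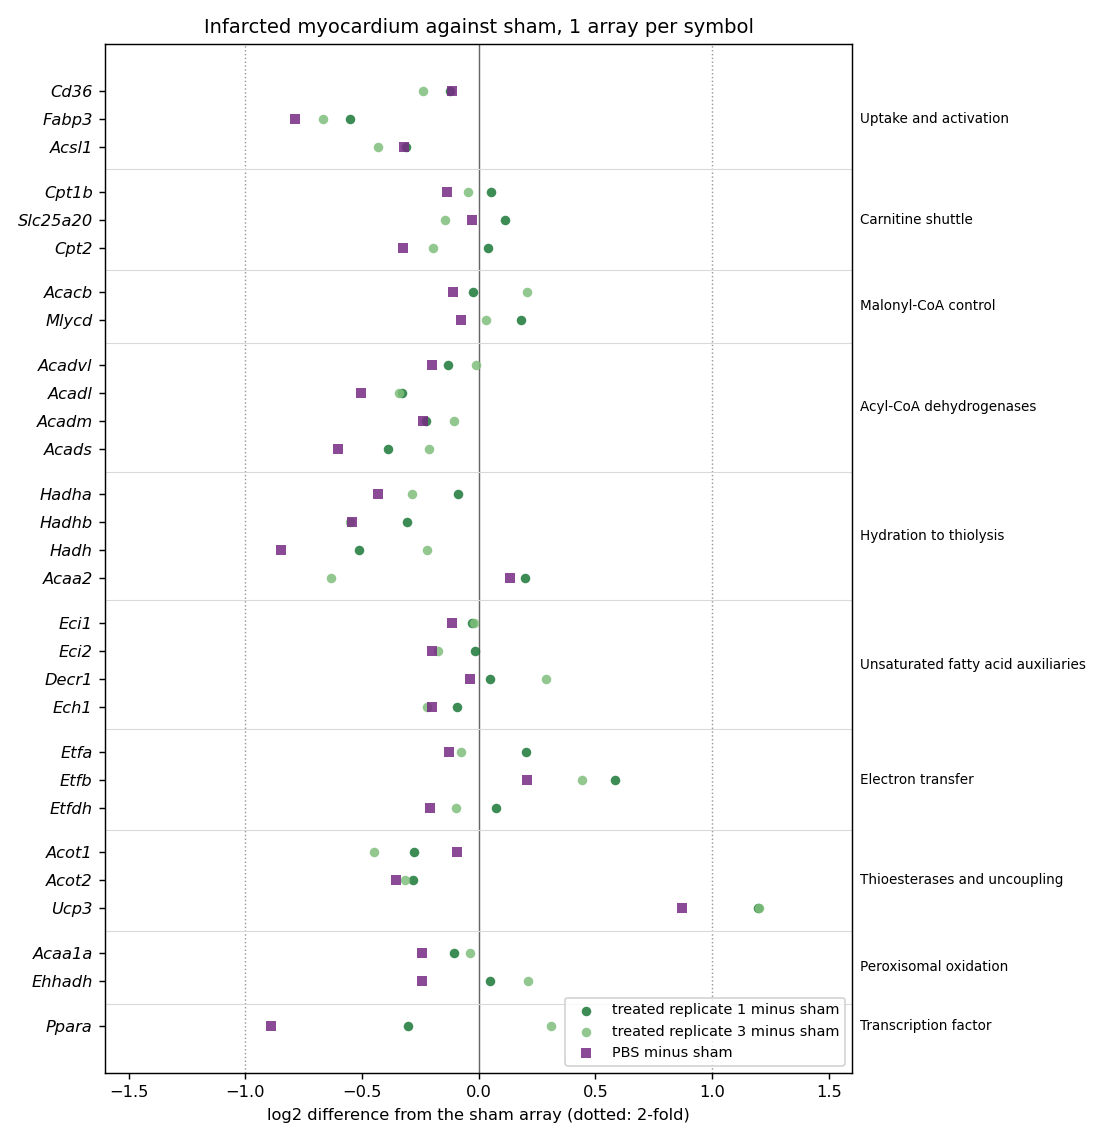
Log2 difference of each gene from the sham array for treated replicate 1, treated replicate 3 and the PBS array, 1 array per symbol, with dotted lines at 2-fold. Ucp3 reaches 2-fold in both treated arrays, Ppara spans 0, and Fabp3 and Hadh lie left of 0 on all 3 infarcted arrays.

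The last comparison set labelled against unlabelled cultured ADSCs, 1 array each and with no test. The tracer cannot be told apart here from any other difference between these arrays. Of the 26 members measured on both, none was 2-fold apart, where 0.516% of 17845 features were 2-fold lower and 0.437% 2-fold higher. In 21 of 26 the labelled array was higher (20 to 22 under the other settings), where 44.1% of all features were higher and 47.1% of features as bright in ADSCs as the members. Of the 22 members among such bright features 19 were higher. The median log2 difference was 0.13, against -0.03 for all features and -0.01 for bright ones.

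Genes of the mitochondrial pathway made up most of the higher ones. Acaa2 had 1.05 in labelled and 0.25 in unlabelled ADSCs (log2 difference 0.80), Slc25a20 had 0.82 in labelled and 0.40 in unlabelled ADSCs (0.43), and Fabp3 had -0.64 in labelled and -1.05 in unlabelled ADSCs (0.40). Eci2 and Ech1 differed by 0.39 and 0.38. All 3 genes of the carnitine shuttle, all 4 acyl-CoA dehydrogenases, all 4 genes of the later steps, all 4 auxiliaries and all 3 electron transfer genes were higher in labelled cells, by 0.02 (Decr1) to 0.80. The 5 lower members were Acot1 (-0.29), Ppara (-0.26), Acaa1a (-0.14), Acsl1 (-0.14) and Acot2 (-0.01, which turned to 0.02 with median centring). Cd36, Acacb and Ucp3 were not well above background on either array and received no difference.

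Larger differences lay next to the members. Angptl4 had 3.56 in labelled and -1.69 in unlabelled ADSCs, 38.2-fold higher, and Cpt1a had -0.34 in labelled and -1.88 in unlabelled ADSCs, 2.91-fold higher. Both are known PPAR-responsive genes, and Cpt1a is the Cpt1 isoform outside muscle. Cpt1b, the muscle isoform among the members, differed by 0.35. Ucp2 was 1.85-fold and Plin2 1.65-fold higher in labelled cells, while Lpl, Pnpla2 and Vldlr differed by -0.02, -0.0046 and 0.04. Among genes that control transcription of oxidation genes, 9 of 11 were lower in labelled cells, where 55.9% of all features were. Klf15 stood at -0.58 in labelled and 0.23 in unlabelled ADSCs (-0.81). Of 26 other fatty acid oxidation genes, 13 were higher and 13 lower, the furthest down being Acadsb (-0.64), the dehydrogenase for short branched chains.

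**Figure D4:**
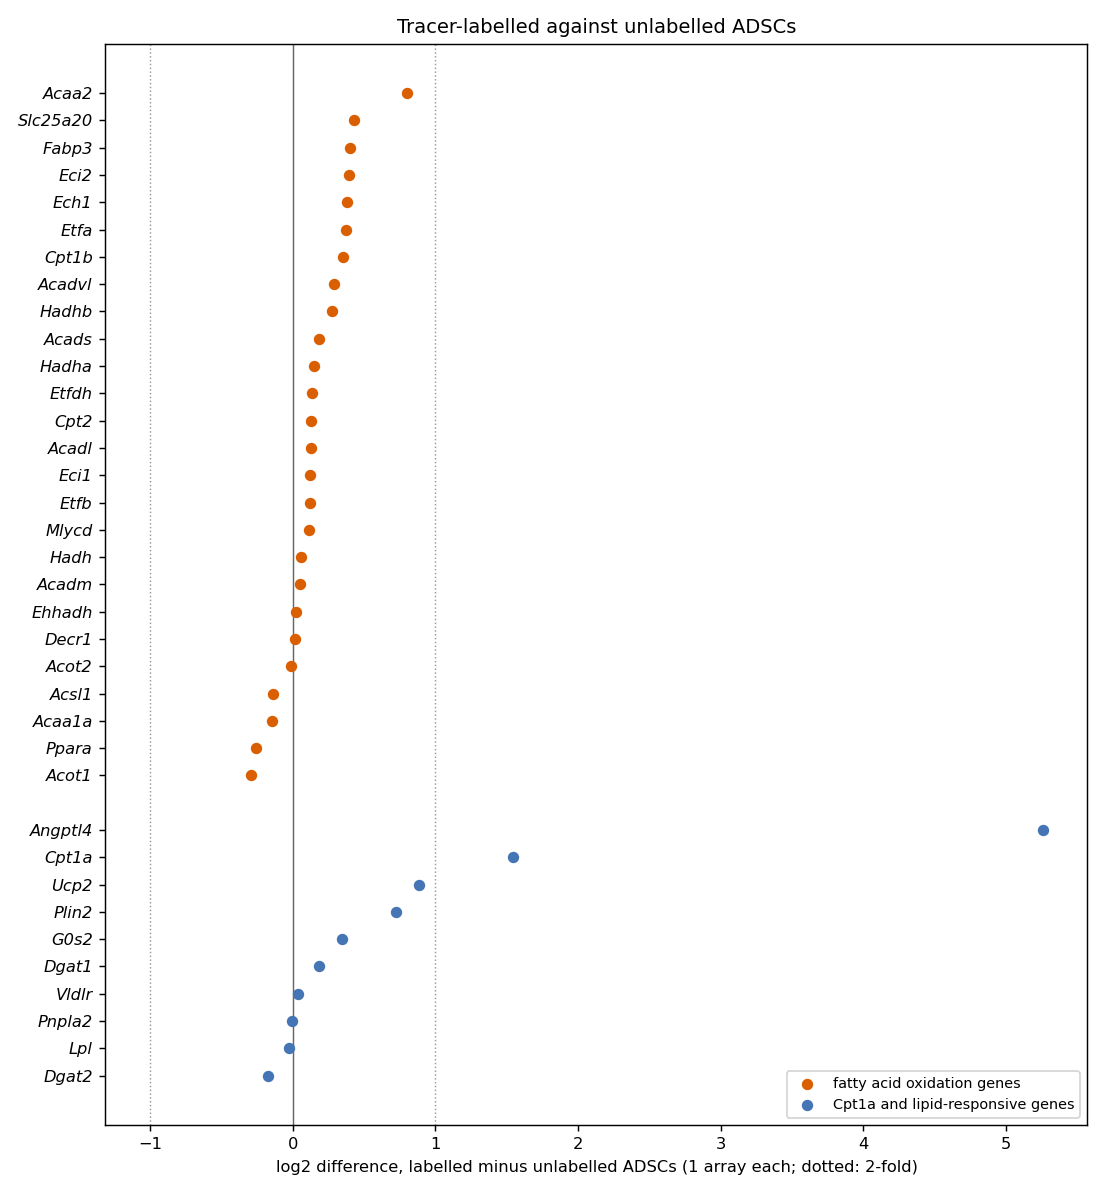
Log2 difference, labelled minus unlabelled ADSCs, for the 26 fatty acid oxidation genes measured on both arrays and, below them, for Cpt1a and the lipid-responsive genes measured on both, with dotted lines at 2-fold. The 26 genes lie between -0.29 and 0.80, and only Angptl4 and Cpt1a pass 2-fold.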

How the data were processed

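Total RNA was labelled with Cy3 and hybridised to Agilent rat arrays, per the labels' protocols. The authors deposited each array's scanner output, from Agilent Feature Extraction 11.0.1.1 (software and version as in the submitters' processing notes), with intensity columns for processed and median signal and for background at 58717 spots that are not controls. A log2 table deposited by the authors served as an alternative, its making not given in the sources used here. Its direction and log2 scale are those of the scanner signal (r at least 0.9998 per array), every myocardial column has a median of 8.85 and both ADSC columns one of 9.67, and how it was centred is unknown, so it was used within each set only.

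All 6 arrays lay on 1 slide in 1 scan. Log2 processed signal was taken minus each array's 75th percentile. Spots that the scanner software marked as outliers were left out, and spots of a probe were averaged. A probe was well above background where more than 0.5 of its spots were. Accessions were matched to RefSeq symbols (GRCr8, used for names because the array files carry another build): 18355 of 30367 probes received 1 symbol and 12012 none. The brightest probe stood for a gene, giving 27455 features. Of the members, Acaa1a, Acot2, Cd36, Cpt1b and Hadha have 2 probes, which lay on the same side in ADSCs against myocardium.

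ADSC against myocardium was fitted with limma 3.58.1 (R 4.3.3, Benjamini-Hochberg adjustment) over the 20343 features that 1 or more of the 6 arrays measured well above background, with conditions within each arm left in the residual. Treated against PBS and against sham came from 1 fit of the 4 myocardial arrays. Single arrays were compared by a 2-fold rule over features well above background on each. The fits were also run on simulated data with a spread modelled on these arrays, a check of the code and not of the spread of the treated pair. The members and gene lists were chosen with earlier results of these data known. Named genes are those with the brightest probe of each role and, per comparison, the up to 5 members furthest up and down (by the smaller of the differences of the treated arrays where these enter), plus up to 4 genes of a list. Exceptions chosen after their values were seen are the remaining members named with a fold or a difference, Cpt1a against myocardium, the lipid-responsive genes of the tracer comparison, the context genes named beside treated myocardium, and Adipoq. Features of like brightness, an alternative background chosen after the data were seen, have a mean myocardial level of at least 2.60 (2300 features) or a mean ADSC level of at least -0.84 (7740 features), the lowest quartile of the members. Normexp (offset 50) used the median signal. Other alternatives were quantile normalization, median centring, the deposited table, the mean over a gene's probes, other filters, the variance model, a 1.5-fold rule and leaving out arrays. Promoters were searched with Python 3.11.15, and figures were drawn with matplotlib 3.10.9.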

Additional observations from a re-analysis of the deposited data

How the results depend on the processing

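The number of members called in ADSCs against myocardium was 28 or 29 under the other scalings and probe means, 26 of the 26 well above background on every array, and 27 to 29 with 1 array left out, with medians between -3.50 and -3.12. The deposited table was not run for this comparison, since its cell and myocardial columns have different medians and how they were centred is unknown. That median was -3.16 with normexp and -3.06 with median centring. Over all 27455 features the median difference was -0.45, but -0.84 with normexp, 0.04 with quantile normalization and -0.20 with median centring, and for PBS against sham it was -0.11, -0.28, -0.02 and -0.21. With quantile normalization 9 members lay below sham on all 3 infarcted arrays and 6 above, and the medians were -0.080 for PBS against sham, 0.087 for treated against PBS and -0.0004 for treated against sham. In the authors' deposited table the counts were 8 below and 6 above, and these medians were -0.0861, 0.10 and 0.0035, the last with its sign turned. With median centring the medians were -0.30 for PBS against sham and 0.25 for treated against PBS. Normexp left 0 members 2-fold above sham on both treated arrays. A 1.5-fold rule counted 5 members in PBS against sham and 1 in labelled against unlabelled cells, and dropping the filter on dim probes added 2 there, Acacb and Ucp3, that are not well above background. With an infarcted array left out, 16 to 21 members lay below sham and 2 to 5 above, 5 without the PBS array. Treated replicate 3 alone put 1 member, Ppara, 2-fold above PBS, against 0 for replicate 1, and single replicates gave medians of 0.12 to 0.18 against PBS and -0.14 to -0.0906 against sham. Features called in treated against PBS numbered 13, but 71 with normexp, 6 with median centring, 10 with probe means and 0 with quantile normalization or the deposited table, and in treated against sham 0, but 34 with normexp and 2 in the deposited table. Of 251 values of named members under the alternatives, 246 kept their direction. The causes of these changes were not tested. No paired analysis was possible because the groups share fewer than 2 replicate numbers. With sham, PBS and each cell condition on 1 array, differences below 2-fold have no measure of error there.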
